A study of Sus scrofa with 33 samples.

Results

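The solute carrier (SLC) genes are described here in right ventricular muscle of pigs (Sus scrofa) that were put under acute pressure load. Members were all genes whose platform annotation gave 1 symbol made of SLC, a family number, the letter A and a member number, except for a pair that the rule leaves out. The rule reads symbols and no measured value, but it was set with earlier results of these data known. Of 6765 genes with a single symbol on the array, 109 were members, in 37 families. They comprised 106 carriers and 3 regulators that bear a carrier's name (SLC2A4RG, SLC9A3R1 and SLC9A3R2), and 21 of the carriers belonged to SLC25, the mitochondrial carrier family. Where a gene had several probe sets, the one with the highest mean signal across the 33 arrays was read.

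Biopsies of the right ventricular free wall were taken from 11 pigs at 3 times: at baseline, after 120 min of pulmonary banding (narrowing the pulmonary artery, against which the right ventricle then has to pump), and 60 min later. The pigs were randomised once right ventricular failure was established. In the control arm (5 pigs) banding alone went on for the further 60 min, and in the shunt arm (6 pigs) those 60 min of banding were spent with a modified Glenn shunt, through which blood of the superior vena cava reaches the pulmonary artery without passing the right ventricle. All pigs were banded, so a change between biopsies holds everything that happened between them. Each array holds total RNA of 1 biopsy, and the labels give neither strain, age nor sex.

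Solute carriers move sugars, amino acids, ions, metals, nucleosides, organic acids and vitamins across membranes without using ATP directly. Most sit in the plasma membrane or in lysosomes and vesicles, whereas most SLC25 carriers sit in the inner mitochondrial membrane and pass nucleotides, phosphate, carboxylates and acyl-carnitine between matrix and cytosol. Heart muscle relies on fatty acid oxidation, so the uptake of carnitine and the exchange of ADP for ATP are much used there, and glucose, lactate, creatine and amino acid carriers supply the rest of its metabolism.

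Values are log2 RMA values, the authors' normalised array signals, and a change is the difference of log2 values between 2 biopsies of the same pig. The fitted changes carry standard errors (SE) and p-values from limma, adjusted by Benjamini-Hochberg over all 23999 probe sets tested, and a gene passed at an adjusted p under 0.05. Array medians lay between 6.10 and 6.17. Ventricular cardiomyocyte markers (11 measured of 13) averaged between 13.7 and 14.1 on every array, near the top of the scale of 2.21 to 15.2. By their spiked-in control RNAs the arrays fell into 3 sets: shunt pigs 1 to 4, shunt pigs 5 and 6, and the control pigs. In that order the Dap control lay at 2.52 to 3.16, 10.04 to 10.69 and 8.41 to 10.78, which set only shunt pigs 1 to 4 apart. The BioB control lay at 7.97 to 8.43, 5.82 to 6.24 and 8.73 to 9.85, without overlap. No set held pigs of both arms, so arm and array set cannot be told apart in a comparison of the arms, whereas a change within a pig compares arrays of 1 set.

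The change from baseline to 120 min of banding, averaged over the 11 pigs, shows which carriers moved as the right ventricle came under load. The largest rises were those of the metal carrier SLC11A1, the cationic amino acid carrier SLC7A1, the glucose carrier SLC2A3 and the mitochondrial carrier SLC25A33. The largest falls were those of the mitochondrial carriers SLC25A30, SLC25A38 and SLC25A24 and the lysosomal protein SLC38A9. In all, 38 of the 109 genes passed, against a background of 33.9% of the 6765 genes. The SLC genes were called about as often as genes at large, but with another balance of directions: 26 rose (23.9%, background 13.1%) and 12 fell (11.0%, background 20.8%). The median change was 0.05 over the 109 genes and -0.02 over all genes. Outside SLC25, 22 of 88 genes rose and 6 fell. Within SLC25, 4 of 21 rose and 6 fell, with a median of -0.05. Of the genes that passed, which the mean over the same pigs had picked, 11 were higher in each of the 11 pigs and 6 were lower in each. The pooled baseline and 120 min levels overlapped for each of the 109 genes, so the changes are seen pig by pig. Neither count was made over all genes, so neither sets the SLC genes apart. Fitted alone, the array sets gave 8 calls (shunt pigs 1 to 4), 0 calls (shunt pigs 5 and 6) and 10 calls (control pigs). The backgrounds of these fits over all genes were 10.6%, 1.83% and 8.07%. At an unadjusted limma p under 0.05 the counts of SLC genes were 32, 26 and 26, and the share of all genes at that cut was not computed. The 38 genes, which the mean over the same pigs had picked, had the same sign in each of the 3 sets.

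**Figure D1:**
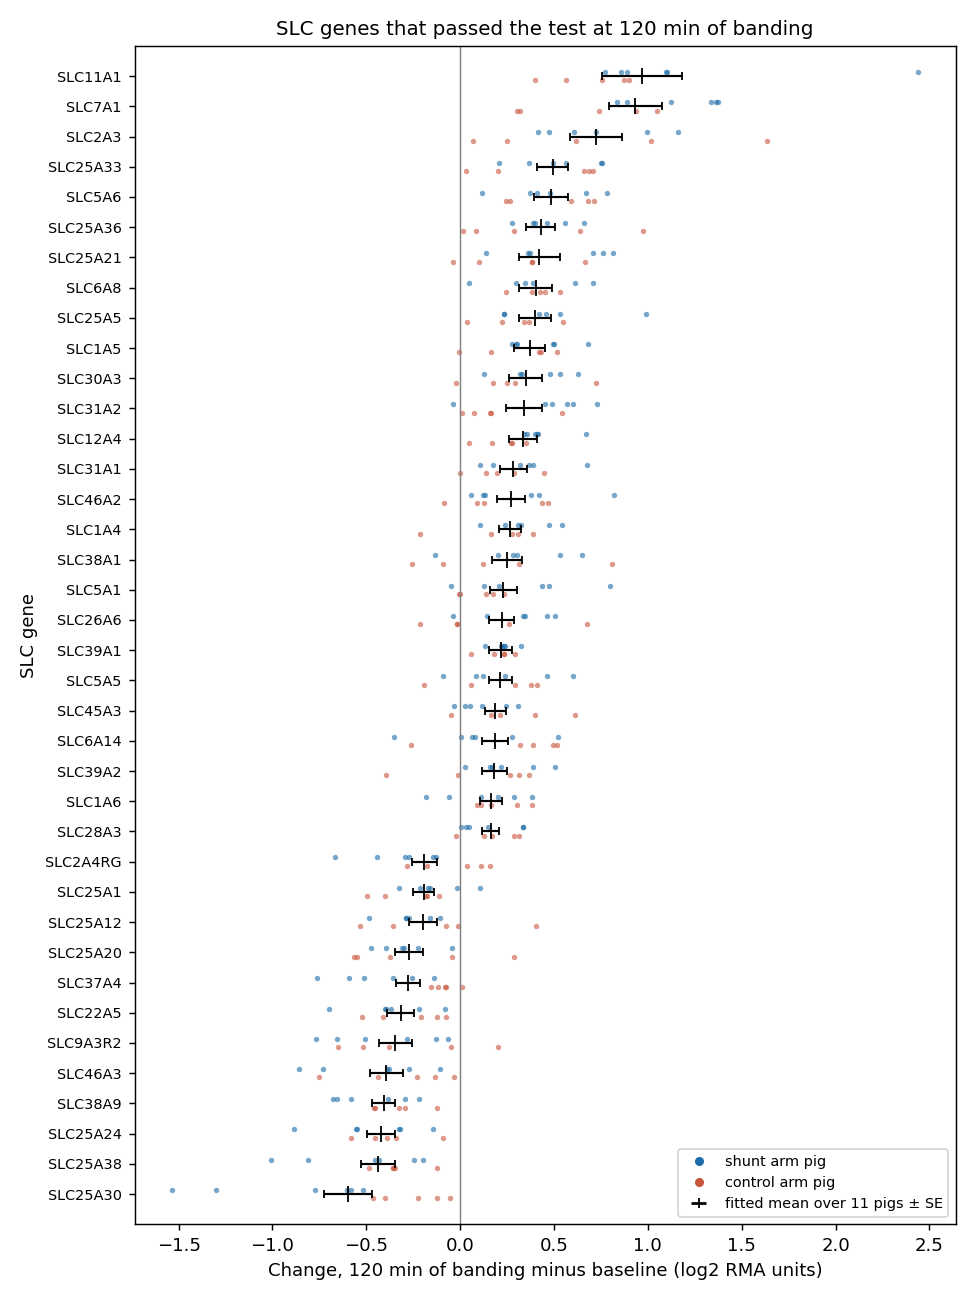
Each row is 1 of the 38 SLC genes that passed the test at 120 min of banding, and the horizontal axis is the change from baseline in log2 RMA units; dots are pigs (6 in the shunt arm, 5 in the control arm) and the black mark is the fitted mean over 11 pigs with its SE. The 26 rises run from 0.16 to 0.97 and the 12 falls from -0.19 to -0.60, and shunt pig 4 lies alone at 2.44 for SLC11A1.

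Amino acid carriers were led by SLC7A1, the cationic amino acid transporter that brings arginine and lysine into cells. In the shunt arm its baseline levels had a lowest, median and highest value of 7.32, 7.83 and 8.52, and at 120 min of 8.66, 9.08 and 9.41. In control pigs 1 to 5 the baseline levels were 8.12, 8.08, 7.92, 7.32 and 7.91, and those at 120 min were 9.05, 8.82, 8.24, 8.37 and 8.21. Within each arm the baseline and 120 min levels did not overlap. SLC7A1 rose by 0.93 ± 0.14 (SE, 11 pigs), a 1.91-fold increase with an adjusted p of 2.24e-05 in limma, and it was higher in 11 of 11 pigs.

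Of 19 genes in the families of amino acid carriers (SLC1, SLC3, SLC6, SLC7, SLC36 and SLC38), 7 rose and 1 fell, with a median change of 0.13 (all genes: 13.1% rose and 20.8% fell, the background for each other group at 120 min too). The neutral amino acid exchangers SLC1A5 (ASCT2, a glutamine carrier) and SLC1A4 (ASCT1) rose by 0.37 ± 0.08 and 0.26 ± 0.06, each in 10 of 11 pigs. SLC38A1, a sodium-coupled neutral amino acid carrier, rose by 0.25 ± 0.08. SLC1A6 (0.16) and SLC6A14 (0.19) rose at mean levels of 3.4 and 4.5, in the low part of the scale. SLC6A8, which brings creatine into muscle, rose by 0.40 ± 0.09 in 11 of 11 pigs. SLC3A2, the heavy chain that partners several SLC7 light chains, changed by 0.14 ± 0.05 and just missed the threshold (adjusted p = 0.0522). It passed under some alternatives, among them median centring (adjusted p = 0.0376), quantile normalisation (0.0305) and array weights (0.0422).

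The gene of this group that fell was SLC38A9, a lysosomal protein that senses arginine for the growth regulator mTORC1. Its shunt arm levels ran from 6.55 to 7.45 with a median of 7.005 at baseline, and from 6.21 to 6.77 with a median of 6.54 at 120 min. Control pigs 1 to 5 had 7.11, 7.13, 7.05, 7.33 and 7.17 at baseline and 6.65, 6.67, 6.92, 7.01 and 6.88 at 120 min. In the shunt arm, but not in the control arm, these levels overlapped. SLC38A9 fell by 0.41 ± 0.06 on the log2 scale (adjusted p = 2.27e-05), in 11 of 11 pigs.

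Among the 14 genes of the families named for sugars (SLC2, SLC5, SLC45 and SLC50), 5 rose and none fell, with a median of 0.11. SLC2A3 (GLUT3), a glucose carrier of high affinity that neurons and leukocytes express strongly, had the largest rise. Its shunt arm baseline was 9.99, 10.31 and 10.56 (lowest, median, highest), and its level at 120 min was 10.71, 10.96 and 11.47. In the control pigs it went from 10.18, 10.68, 10.32, 9.89 and 10.33 to 11.81, 11.30, 10.39, 10.91 and 10.58. The levels were apart in the shunt arm but overlapped in the control arm, where pig 3 rose by 0.07 and pig 1 by 1.63. The mean rise was 0.72 ± 0.14, or 1.65-fold (adjusted p = 0.000346), in 11 of 11 pigs. SLC2A4 (GLUT4), the insulin-regulated glucose carrier of muscle, changed by 0.10 ± 0.07 and did not pass (adjusted p = 0.313). SLC2A4RG, a transcription factor named for the SLC2A4 gene, fell by 0.19 ± 0.07 (adjusted p = 0.0347), in 8 of 11 pigs. Its change was -0.33 in the shunt arm and -0.03 among control pigs. Its call was lost with quantile normalisation (adjusted p = 0.0779), without the pig block (0.103) and on leaving out shunt pig 1, 3, 5 or 6 or control pig 2 or 4 (0.0537 to 0.126).

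The second largest rise of the sugar families was that of SLC5A6, which despite its family carries the vitamins biotin and pantothenate with sodium. It rose by 0.48 ± 0.09 (adjusted p = 0.000204), in 11 of 11 pigs. SLC5A1, the sodium-glucose carrier SGLT1, rose by 0.23 ± 0.07, the iodide carrier SLC5A5 by 0.21 ± 0.06 and SLC45A3 by 0.19 ± 0.06. Of these, SLC5A1 and SLC5A5 had mean levels of 3.5 and 4.3.

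Of 13 metal carriers 6 rose and none fell, against 13.1% and 20.8% of all genes, and the other 7 did not pass. The median change was 0.16. SLC11A1 (NRAMP1), which pumps iron and manganese out of the phagosomes of macrophages and neutrophils, had the largest mean rise of all 109 genes. In the shunt arm it had a lowest, median and highest level of 4.83, 5.13 and 5.67 at baseline and of 5.78, 6.12 and 7.79 at 120 min. The control pigs went from 5.29, 5.36, 4.98, 4.97 and 5.11 to 5.85, 6.24, 5.74, 5.87 and 5.51. In both arms the levels at 120 min lay above those at baseline. The rise was 0.97 ± 0.21, or 1.96-fold (adjusted p = 0.0012), in 11 of 11 pigs, and without shunt pig 4 it was 0.82.

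Leukocyte markers were followed beside SLC11A1 and SLC2A3. The mean of the neutrophil and monocyte markers (7 measured of 10) lay at 5.43 to 5.81 in the shunt arm at baseline and at 5.73 to 6.81 at 120 min, a change of 0.645 ± 0.366 (SD, n = 6), higher in 6 of 6 pigs. In the control arm it lay at 5.49 to 5.76 and then at 5.54 to 5.82, a change of 0.028 ± 0.129 (SD, n = 5), higher in 3 of 5. By arm, SLC11A1 rose by 1.19 ± 0.29 (SE) in the shunt pigs and changed by 0.70 ± 0.32 in the control pigs, and SLC2A3 rose by 0.73 ± 0.19 and 0.72 ± 0.21. Macrophage markers (5 measured of 8) changed by 0.324 ± 0.258 (SD, n = 6), higher in 6 of 6 shunt pigs, and by 0.193 ± 0.355 (SD, n = 5), higher in 2 of 5 control pigs. Smooth muscle and pericyte markers (5 measured of 6) changed by 0.45 ± 0.349, higher in 6 of 6 shunt pigs, and by 0.131 ± 0.254, higher in 3 of 5 control pigs. The markers of a list did not all move alike. In the order given, 4 of 7, 1 of 5 and 2 of 5 passed as higher in the shunt arm (all genes: 11.7%). Their median changes were 0.47, 0.19 and 0.21 in the shunt arm and -0.03, 0.12 and 0.03 in the control arm. The part of these markers in the changes of the SLC genes was not tested. In bulk tissue more cells of a type and more RNA per cell cannot be told apart, and this holds for each change given here.

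The other metal carriers that rose were SLC30A3, a vesicular zinc carrier (0.35 ± 0.09), SLC31A1, the main copper importer (0.28 ± 0.07), its relative SLC31A2 (0.34 ± 0.10), and the zinc importers SLC39A1 (0.22 ± 0.06) and SLC39A2 (0.18 ± 0.07). SLC31A1 and SLC39A1 were higher in 11 of 11 pigs. SLC39A14, which imports zinc and iron and belongs to the acute-phase response in liver, changed by 0.14 ± 0.06 without passing (adjusted p = 0.0927).

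Of 10 carriers in the families of pH and ion exchange, 2 rose and none fell. The potassium-chloride carrier SLC12A4 rose by 0.34 ± 0.07 in 11 of 11 pigs, and the anion exchanger SLC26A6 by 0.22 ± 0.07 in 7 of 11. SLC8A1, the sodium-calcium exchanger that removes calcium from the cardiomyocyte, changed by -0.13 ± 0.12 (adjusted p = 0.431). SLC9A5, the sodium-proton exchanger with the smallest p of its family, changed by 0.14 ± 0.06 (adjusted p = 0.0574). Some alternatives gave SLC9A5 a call, among them median centring (adjusted p = 0.0429) and quantile normalisation (0.0367).

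Carriers of organic ions and of monocarboxylates numbered 8, and SLC22A5 was the 1 that passed. SLC22A5 (OCTN2) takes up carnitine, which long-chain fatty acids need to enter mitochondria. It fell by 0.32 ± 0.07 (adjusted p = 0.00163) and was lower in 11 of 11 pigs, from 7.08 ± 0.41 to 6.72 ± 0.34 in the shunt arm (SD, n = 6) and from 7.05 ± 0.14 to 6.79 ± 0.14 in the control arm (SD, n = 5). The lactate exporter SLC16A3 changed by -0.09 ± 0.08 and the fatty acid carrier SLC27A6 by -0.16 ± 0.09, both short of the threshold.

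In the families of nucleoside, nucleotide sugar and vitamin carriers, 2 of 12 genes rose and 1 fell. SLC46A2 rose by 0.27 ± 0.07 and the nucleoside carrier SLC28A3 by 0.16 ± 0.05, the latter at a mean level of 3.0. SLC46A3, a lysosomal member of a family that also holds the folate carrier SLC46A1, fell by 0.39 ± 0.09 (adjusted p = 0.00136) in 11 of 11 pigs, while its other probe set changed by 0.02. The equilibrative nucleoside carrier SLC29A1, which takes up adenosine, changed by 0.02 ± 0.07. Among 3 phosphate carriers, SLC37A4, which brings glucose 6-phosphate into the endoplasmic reticulum, fell by 0.28 ± 0.06 (adjusted p = 0.00168) in 10 of 11 pigs. The scaffold protein SLC9A3R2 (NHERF2), a regulator, fell by 0.35 ± 0.09 in 10 of 11 pigs. None of the 3 peptide and vesicle carriers, SLC15A1, SLC15A2 and SLC17A1, nor the 2 SLC44 genes passed, with changes from -0.05 to 0.05.

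The mitochondrial carriers that rose were SLC25A33 and SLC25A36, which bring pyrimidine nucleotides into mitochondria, SLC25A21, a carrier of oxodicarboxylates of lysine and tryptophan breakdown, and SLC25A5, an ADP/ATP carrier. SLC25A33 levels in the shunt arm were 7.78, 8.09 and 8.75 (lowest, median, highest) at baseline and 8.48, 8.58 and 9.25 at 120 min. In the control pigs they were 8.06, 8.60, 8.18, 7.35 and 7.79 and then 8.72, 8.80, 8.21, 8.06 and 8.47. The levels overlapped in both arms, yet each pig was higher at 120 min than at its own baseline. SLC25A33 rose by 0.49 ± 0.08 (adjusted p = 6.2e-05), SLC25A36 by 0.43 ± 0.08 in 11 of 11 pigs, and SLC25A21 by 0.42 ± 0.11 in 10 of 11.

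The ADP/ATP carriers exchange matrix ATP for cytosolic ADP, and 3 were measured. SLC25A5 (ANT2), which in most tissues follows cell growth, rose by 0.40 ± 0.08 (adjusted p = 0.000911), in 11 of 11 pigs. Its shunt arm levels went from 8.21, 8.54 and 8.65 to 8.67, 9.05 and 9.20 (lowest, median, highest), without overlap. Its control arm levels went from 8.30, 8.99, 8.30, 8.59 and 8.20 to 8.84, 9.33, 8.34, 8.81 and 8.57, with overlap. SLC25A4 (ANT1), the main form of heart and skeletal muscle, changed by -0.01 ± 0.04 and SLC25A6 (ANT3) by -0.05 ± 0.05, and neither passed. SLC25A3, the phosphate carrier that feeds ATP synthesis, changed by -0.05 ± 0.06. For SLC25A4 and SLC25A3, with mean levels of 14.1 and 13.8, the signal lay near the top of the scale.

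The SLC25 genes that fell were SLC25A30, SLC25A38, SLC25A24, SLC25A20, SLC25A12 and SLC25A1. SLC25A30, the kidney mitochondrial carrier protein, had the largest fall of all 109 genes. In the shunt arm it went from 9.46, 9.81 and 10.13 to 8.24, 8.96 and 9.53 (lowest, median, highest). In the control pigs it went from 9.88, 10.23, 9.69, 10.03 and 9.58 to 9.48, 9.76, 9.57, 9.98 and 9.36. The levels overlapped in both arms. It fell by 0.60 ± 0.13 (adjusted p = 0.000888) in 11 of 11 pigs, with single falls from 0.06 in control pig 4 to 1.54 in shunt pig 3.

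SLC25A38, which supplies mitochondria with glycine for haem synthesis, fell by 0.44 ± 0.09 (adjusted p = 0.000609). SLC25A24, the ATP-Mg/phosphate carrier, fell by 0.42 ± 0.07 (adjusted p = 8.95e-05). Both were lower in 11 of 11 pigs, but another probe set of SLC25A38 changed by 0.12 without passing. SLC25A20, the carnitine-acylcarnitine carrier that brings fatty acids to oxidation, fell by 0.27 ± 0.07 and the citrate carrier SLC25A1 by 0.20 ± 0.05, each in 10 of 11. The aspartate-glutamate carrier SLC25A12, part of the malate-aspartate shuttle, fell by 0.20 ± 0.07 with an adjusted p of 0.0478, which went to 0.0523 when each array was centred on its median. Its partner in that shuttle, the oxoglutarate carrier SLC25A11, changed by -0.13 ± 0.08 without passing.

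Cardiomyocyte and erythrocyte markers are given beside the SLC25 genes. The cardiomyocyte markers changed on average by -0.108 ± 0.087 in the shunt arm, lower in 6 of 6 pigs, and by -0.047 ± 0.092 in the control arm (SD, n = 6 and 5). Erythrocyte markers (4 measured of 9), which bear on the haem-related SLC25A37, SLC25A38 and SLC25A39, changed by -0.089 ± 0.391 and -0.909 ± 0.963. Their part in the SLC25 changes was not tested.

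Genes that work beside the carriers were counted from lists, to be read against 13.1% of all genes higher and 20.8% lower. Of 17 measured carriers and partners without an SLC symbol (24 listed, among them the mitochondrial pyruvate carrier and the porins), none rose and 1, the SLC16 partner NPTN, fell (-0.24). Of 8 measured ATP-driven pump genes (15 listed), the sodium pump subunit ATP1B3 rose by 0.48 and the Golgi calcium pump ATP2C1 fell by 0.28. Of 8 measured ABC transporters (19 listed), the cholesterol exporter ABCA1 rose by 0.52, and ABCB1, ABCB6 and ABCD3 fell.

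Up to 120 min both arms had been treated alike, and the response was also fitted by arm. In the shunt arm 34 SLC genes passed, 24 higher and 10 lower (background 28.2%, 11.7% and 16.5%). In the control arm 8 passed, 5 higher and 3 lower (background 7.02%, 3.44% and 3.58%), and 6 genes passed in both arms: SLC2A3, SLC5A6, SLC25A24, SLC25A33, SLC25A36 and SLC38A9. Each of the 34 had the same sign in the control arm, compared with 96.1% of all genes called in the shunt arm. The difference between the arms was called for 0 of 109 genes in limma (background 0). At an unadjusted limma p under 0.05 there were 4 (3.67%, against 6.9% of all probe sets), of which SLC37A4 had the smallest p. SLC37A4 fell by 0.44 ± 0.09 in the shunt pigs and changed by -0.08 ± 0.09 in the control pigs, a difference of -0.35 with a 95% interval from -0.62 to -0.09 (adjusted p = 0.582). Next to it were SLC25A30 (-0.63) and SLC2A4RG (-0.29), and on the other side the glutamate carrier SLC1A1 (0.25), SLC25A51 (0.22), which brings NAD into mitochondria, and SLC7A1 (0.48), none of which passed.

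Before banding the arms were set against each other on the 11 baseline arrays. No SLC gene differed in limma (0 of 109, background 0.0443%, with 0.0148% higher and 0.0296% lower in the shunt arm). At an unadjusted limma p under 0.05 there were 10 (9.17%, against 11.8% of all probe sets). The smallest p belonged to SLC25A20, lower in the shunt arm by 0.51 ± 0.14, with 9.13 ± 0.21 against 9.63 ± 0.32 (SD, n = 6 and 5; adjusted p = 0.224). SLC25A38 was higher in the shunt arm by 0.38 ± 0.12, with 7.73 ± 0.21 against 7.35 ± 0.19 (adjusted p = 0.255). SLC12A4 (-0.42) and SLC5A10 (-0.26) leaned the same way as SLC25A20, and SLC33A1 (0.37) and SLC31A1 (0.25) the same way as SLC25A38, without passing.

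**Figure D2:**
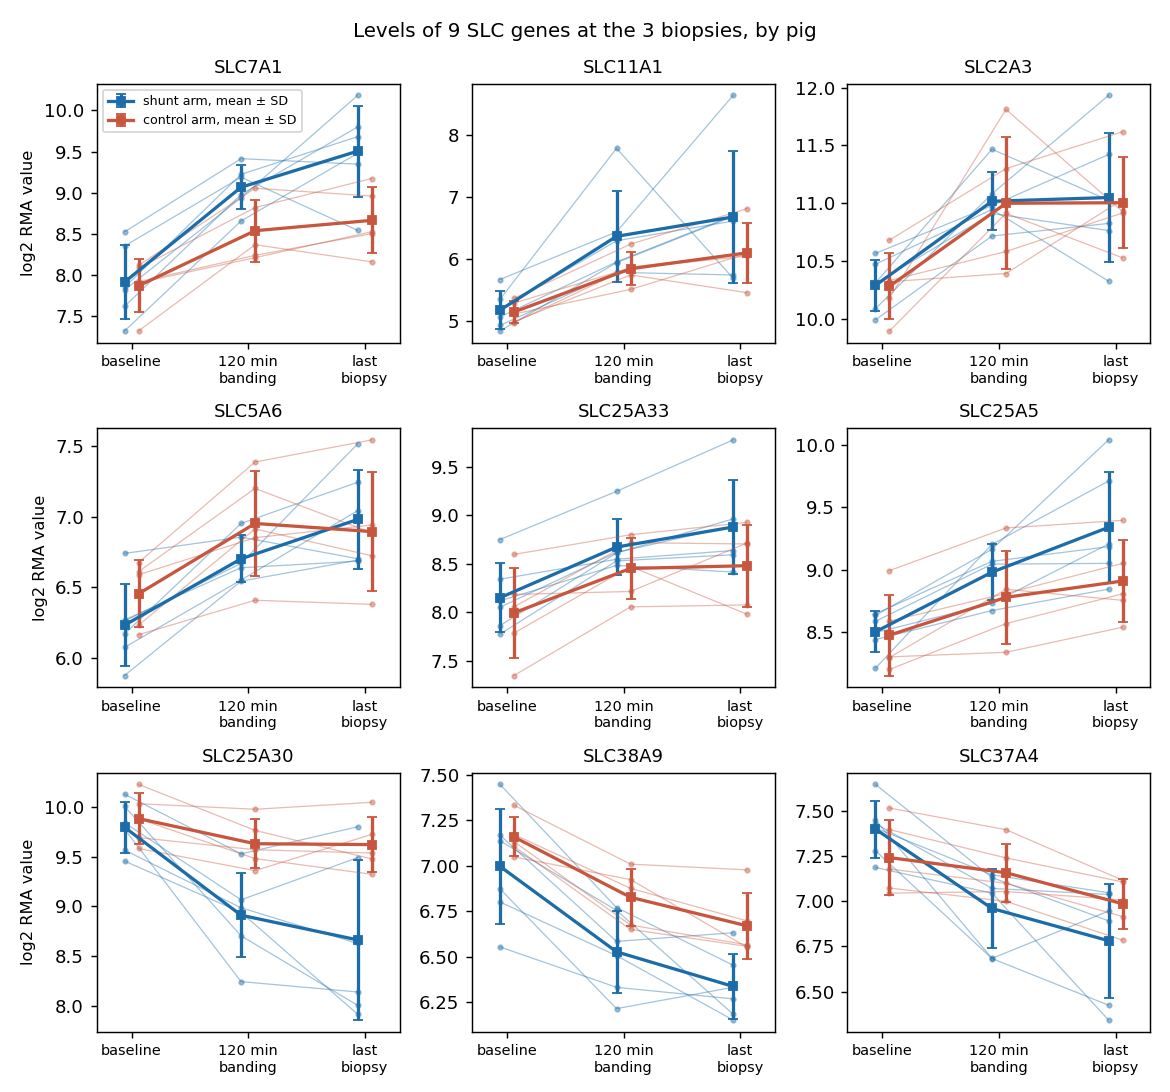
Log2 RMA levels of 9 SLC genes at the 3 biopsies; thin lines are pigs, squares are arm means and bars are SDs (6 shunt pigs, 5 control pigs). SLC7A1 reached 9.51 ± 0.55 (shunt) and 8.66 ± 0.40 (control) at the last biopsy, from 7.91 and 7.87 at baseline, and SLC25A30 reached 8.66 ± 0.81 and 9.62 ± 0.28.

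From 120 min to the last biopsy the question was what the shunt, or further banding, did to the carriers. No SLC gene passed in limma in the shunt arm, in the control arm or in the difference between them, and neither did any of the 6765 genes (background 0). At an unadjusted limma p under 0.05 there were 13 SLC genes in the shunt arm, 4 in the control arm and 3 in the difference. These were 11.9%, 3.67% and 2.75% of the members, against 8.94%, 3.07% and 3.07% of all probe sets. The smallest p in the shunt arm was that of the fatty acid carrier SLC27A6, with a change of -0.43 ± 0.13 (adjusted p = 0.346), next to the glucose carrier SLC2A12 (-0.37 ± 0.11) and SLC25A5 (0.36 ± 0.12). In the difference between the arms, SLC27A6 stood at -0.45, with a 95% interval from -0.85 to -0.06, and the choline carrier family member SLC44A4 at 0.28, with an interval from 0.07 to 0.49. SLC7A1 changed by 0.44 ± 0.19 with the shunt and by 0.13 ± 0.21 in the control arm. For SLC7A1 the difference of the arms was 0.31, with a 95% interval from -0.28 to 0.90.

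Between baseline and the last biopsy, the whole course, the shunt arm had 47 SLC genes that passed (background 40.3%), with 29 higher (background 16.7%) and 18 lower (background 23.6%). These changes share their baseline arrays with the response at 120 min. SLC7A1 rose by 1.59 ± 0.19, a 3.02-fold increase (adjusted p = 1.13e-06), and SLC11A1 by 1.51 ± 0.29, or 2.84-fold, both in 6 of 6 pigs. The next largest rises were those of SLC25A5 (0.84 ± 0.12), SLC25A21 (0.78 ± 0.15), SLC2A3 (0.76 ± 0.19), SLC5A6 (0.75 ± 0.12), SLC25A33 (0.73 ± 0.11) and SLC31A2 (0.61 ± 0.13). SLC2A3 and SLC5A6 were higher in 5 of 6 pigs and the other 4 in 6 of 6. Neutrophil and monocyte markers changed by 0.948 ± 0.49 in shunt pigs and by 0.308 ± 0.17 in control pigs over the same time (SD, n = 6 and 5). Macrophage markers changed by 0.3 ± 0.174 and 0.259 ± 0.256, and smooth muscle and pericyte markers by 0.631 ± 0.516 and 0.169 ± 0.09. All 3 lists were higher in 6 of 6 shunt pigs. Of their markers 5 of 7, 2 of 5 and 3 of 5 passed as higher in the shunt arm and none as lower, with median changes of 0.68, 0.08 and 0.56. Lymphocyte, endothelial, fibroblast and adipocyte lists changed on average by -0.001, 0.063, 0.04 and -0.067 in shunt pigs. In control pigs these were -0.197, 0.033, 0.063 and -0.027. The part of these lists was not tested.

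The largest fall of the whole course in the shunt arm was again that of SLC25A30. Its lowest, median and highest levels at the last biopsy were 7.91, 8.38 and 9.80. Pigs 1, 2 and 3 had fallen by 2.00, 1.54 and 1.64, pig 6 by 0.94 and pigs 4 and 5 by 0.35 and 0.33. The mean fall was 1.13 ± 0.17, or 2.19-fold (adjusted p = 1.88e-05). SLC25A38 fell by 0.68 ± 0.12, SLC38A9 by 0.66 ± 0.08, SLC9A3R2 by 0.65 ± 0.12, SLC37A4 by 0.62 ± 0.09 and SLC25A46, an outer membrane protein of the family that acts in mitochondrial fission, by 0.64 ± 0.18. SLC27A6 fell by 0.64 ± 0.13 and the glucose carrier SLC2A12 by 0.53 ± 0.11, each in 6 of 6 pigs. At 120 min their changes over 11 pigs had been -0.16 and -0.13, neither of which passed.

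By group, to be read against 16.7% of all genes higher and 23.6% lower, 8 of 13 metal carriers rose in the shunt arm and none fell, with a median of 0.32. Among them were the iron importer SLC11A2 (0.25), the zinc carrier SLC30A5 (0.47) and SLC39A14 (0.32), whose changes at 120 min over 11 pigs were 0.16, 0.15 and 0.14. Another SLC30A5 probe set, of lower mean signal, had risen by 0.39 at 120 min (adjusted p = 0.00762). Amino acid carriers had 6 rises and 1 fall among 19, the sugar families 5 and 1 among 14. SLC25 had 5 rises and 8 falls among 21, with a median of -0.14. SLC25A11 and SLC25A12, both of the malate-aspartate shuttle, fell by 0.39 ± 0.10 and 0.49 ± 0.10, and SLC25A20 by 0.39 ± 0.10, while SLC25A17, the peroxisomal carrier of cofactors, rose by 0.39 ± 0.10. SLC25A4 stood at -0.09 and SLC25A3 at -0.09 in the shunt arm, short of the threshold. Cardiomyocyte markers changed by -0.185 ± 0.111 over the same time (SD, n = 6), lower in 6 of 6 pigs, and erythrocyte markers by 0.469 ± 0.639 (SD, n = 6). In control pigs these markers changed by -0.04 ± 0.048 and -0.737 ± 0.688 (SD, n = 5). Their part in the SLC changes or in the differences between the arms was not tested.

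In the control arm 12 SLC genes passed over the whole course (background 9.98%), 7 higher and 5 lower (background 4.39% and 5.59%). The rises were those of SLC7A1 (0.80 ± 0.21), SLC2A3 (0.72 ± 0.21), SLC25A21 (0.55 ± 0.17), SLC25A33 (0.49 ± 0.12), SLC5A6 (0.44 ± 0.13), SLC25A5 (0.43 ± 0.13) and SLC1A4 (0.34 ± 0.09). The falls were those of SLC46A3 (-0.51 ± 0.13), SLC38A9 (-0.49 ± 0.09), SLC9A3R2 (-0.41 ± 0.13), SLC25A24 (-0.39 ± 0.11) and SLC25A1 (-0.32 ± 0.08). With the mean of its probe sets SLC46A3 changed by -0.22 and lost its call (adjusted p = 0.185). SLC9A3R2 lost its call under 9 of 21 alternatives, among them quantile normalisation (adjusted p = 0.0745), and SLC5A6 under 8 of 21. SLC11A1 changed by 0.95 ± 0.32, in 5 of 5 pigs, with an adjusted p of 0.0612. The count of 12 was lower with any 1 control pig left out: 3, 2, 8, 4 and 9 without control pigs 1 to 5 in turn. It was 1 in the fit without the pig as a block. The share of all genes called in these fits was not computed, so the counts do not single out the SLC genes.

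**Figure D3:**
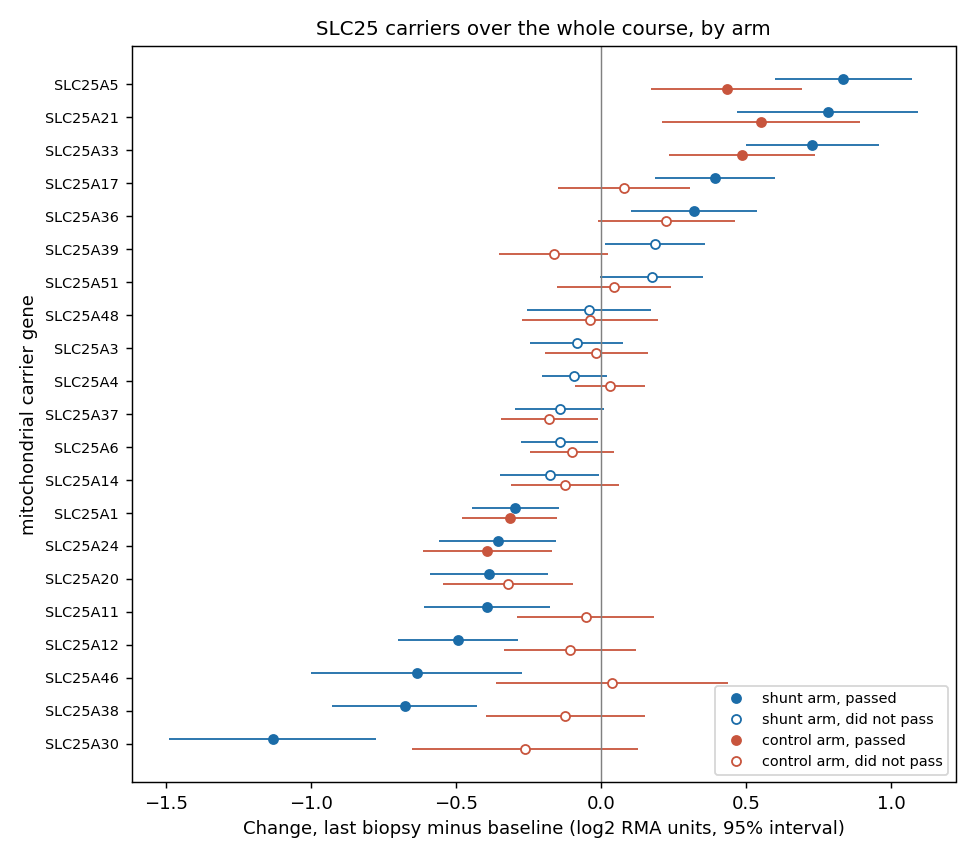
Whole-course changes of the 21 SLC25 genes in log2 RMA units, with 95% intervals, for the shunt arm (6 pigs) and the control arm (5 pigs); filled points passed the test and open points did not. In the shunt arm 5 genes lie above 0 and 8 below among those that passed, from 0.84 for SLC25A5 to -1.13 for SLC25A30, and in the control arm 3 and 2.

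All 12 genes called in the control arm were called in the shunt arm with the same sign, where they were 12 of 47. Of the 47, 45 had the same sign in the control arm (95.7%, against 94.3% of all genes called in the shunt arm). The shunt arm change was the larger in 44 of the 47 (93.6%, against 95.1%), with a median size of 0.41 in shunt pigs and 0.21 in control pigs. The SLC genes thus stood near the values of genes at large in this respect, and the choice by the shunt arm's own changes enters the sizes.

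The arms' whole-course changes were compared directly as an interaction. No SLC gene passed in limma (0 of 109, background 0.0148%). At an unadjusted limma p under 0.05 there were 18 (16.5%, against 12.2% of all probe sets). The smallest p belonged to SLC25A30, at -1.13 ± 0.17 in shunt pigs and -0.26 ± 0.19 in control pigs, a difference of -0.87 with a 95% interval from -1.40 to -0.34 (adjusted p = 0.179). SLC25A38 differed by -0.55 and SLC27A6 by -0.58, with adjusted p of 0.211 and 0.213. On the other side were SLC25A39 (0.35), SLC30A5 (0.46) and SLC7A1 (0.80, 95% interval from 0.21 to 1.39, adjusted p = 0.254). Calls appeared when shunt pig 4 or 5 was left out, and with each other pig left out the count of SLC genes was 0. Without shunt pig 4, SLC25A30 differed by -1.03 (adjusted p = 0.0439). Without shunt pig 5, SLC7A1 differed by 1.08 (adjusted p = 0.0383) and SLC25A38 by -0.71 with an adjusted p on the threshold. The pigs left out had small changes in these genes: -0.35 in shunt pig 4 for SLC25A30, and 0.19 and 0.08 in shunt pig 5 for SLC7A1 and SLC25A38. These fits were picked from all those that left a pig out, and the share of all genes called in them was not computed. The arms also differ in array set, and these cannot be told apart.

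**Figure D4:**
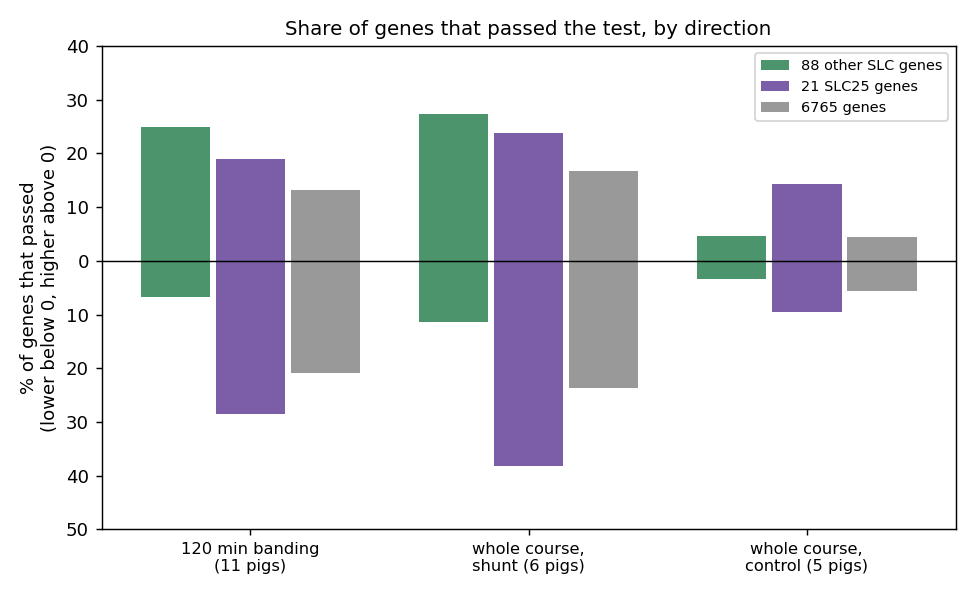
Share of genes that passed the test (%), with higher genes above 0 and lower genes below, for the 88 SLC genes outside SLC25, the 21 SLC25 genes and all 6765 genes, at 120 min of banding (11 pigs) and over the whole course in each arm (6 and 5 pigs). At 120 min 22 of the 88 genes rose and 6 fell, against 13.1% and 20.8% of all genes, and 4 and 6 of the 21 SLC25 genes.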

How the data were processed

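The authors deposited log2 values, 1 per probe set and array, made with RMA per the submitters' processing notes. Which software and version ran it, and over which arrays, is not given in the sources used here. Total RNA of each biopsy was labelled and hybridised to an Affymetrix porcine array, per the labels' protocols. Values were used as deposited, and 124 control probe sets of 24123 were left out. Array signals hold no read depth, so the number of arrays limits the precision.

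Symbols came from the platform annotation, and 108 of the 109 members matched a RefSeq entry. Between them the members had 161 probe sets, and 36 members had more than 1. No genome build was used, and no positions or sequences are given.

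Changes were fitted in R 4.3.3 with limma 3.58.1 (lmFit, eBayes; two-sided; 18 residual degrees of freedom) over all 33 arrays, with pig as a fixed block, as the labels name the same animal at each biopsy. After removal of group means, the median correlation was 0.395 between arrays of the same pig and -0.052 between those of different pigs, and 28 of 33 arrays were closest to their own pig. Baseline was compared on 11 arrays. Scripts were tested on simulated data.

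Genes were named by rule: at 120 min the 12 largest rises and falls that passed, in other changes within an arm the 8 largest, in comparisons of arms the 3 smallest p in each direction (none passed), a panel of 30 carriers (19 measured) and the smallest p of families with 3 or more genes. Others are named where a class is listed in full or a count is small, after their values were seen. Carriers were classed by family number. The members, lists and rules were chosen with earlier results of these data known.

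Alternatives were median centring, quantile normalisation, no pig block or a random one (statmod 1.5.0), fits on the compared arrays alone, a trend of variance with intensity, array weights, the lowest 30% left out, other choices of probe set, a 1.5-fold minimum, each arm or array set alone, and each pig left out. The comparison of the arms at 120 min, the split by level and the count without regulators were added after seeing the data.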

Additional observations from a re-analysis of the deposited data

Results flagged for a closer look

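Dixon's criterion picked out 4 single pigs among 139 groups of 5 or 6 pigs looked at, and chance alone picks about 5% of groups. The SLC11A1 change at 120 min was 2.44 in shunt pig 4, against 0.77 to 1.10 in the other shunt pigs. The SLC31A2 change at 120 min was -0.0384 in shunt pig 1, against 0.45 to 0.73 in the others. The whole-course change of SLC30A5 was 0.49 in control pig 2, against -0.21 to -0.02 in the other control pigs. The baseline level of SLC33A1, the acetyl-CoA carrier of the endoplasmic reticulum, was 6.95 in shunt pig 4, against 6.29 to 6.53 in the others.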

How the results depend on the processing

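Of the counts of SLC genes under the alternatives, 195 stayed within 1.5 times the count reported and 16 did not. Most of the 195 were counts of 0 that stayed 0, in the comparisons where no SLC gene had passed. The count at 120 min (38) was 4 with a 1.5-fold minimum. It was 8 in the control arm alone (7.02% of all genes) and in shunt pigs 1 to 4 alone (10.6%). In shunt pigs 5 and 6 alone it was 0 (1.83% of all genes), with 26 at an unadjusted limma p under 0.05. A fit of the control pigs alone gave 10 (8.07% of all genes). The count was 27 without the pig block and 38 with pig as a random block (correlation 0.248). Over the whole course in the shunt arm (47) it was 16 with a 1.5-fold minimum, 5 in shunt pigs 5 and 6 alone and 35 without the block. Over the whole course in the control arm (12) it was 1 without the block, 7 with the random block, 19 with array weights and 2 with a 1.5-fold minimum. With each pig left out in turn, the counts ran from 33 to 44 at 120 min, from 39 to 48 in the shunt arm, from 2 to 14 in the control arm and from 0 to 2 in the difference of the arms, and fewer pigs enter each of these fits. For the counts given here without a share of all genes, that share was not computed.

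At 120 min SLC25A12 lost its call under 18 of 26 alternatives and SLC2A4RG under 12. Of the 26 named genes that passed, 21 kept their call without the block, and 25 or 26 under each scaling, filter, weighting and probe set choice. Among the genes named by the rule for 120 min, the sign changes were in genes that had not passed. SLC29A1 (0.02) turned to -0.0114 with quantile normalisation, -0.0533 in the control arm or control pigs alone, and -0.0101 and -0.0096 without shunt pig 1 or 4, in a range up to 0.0607 with each pig left out. SLC25A4 (-0.01) turned to 0.0069 with array weights, 0.0273 in the control arm or control pigs alone, 0.0254 in shunt pigs 5 and 6 and 0.0047 without shunt pig 4, in a range down to -0.0167 with each pig left out. SLC8A1 turned to 0.1513 in shunt pigs 1 to 4, and in shunt pigs 5 and 6 SLC39A14 turned to -0.0058 and SLC25A3 to 0.0115. Over all comparisons and alternatives, genes named by the rule gained a call 24 times, in 6 pairs of gene and comparison. They lost a call 180 times, in 48 pairs. The causes were not tested.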

Other observations

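The balance of rises and falls was also looked at by mean signal. Among the SLC genes above the lowest 30% of probe sets by mean level (4.88), 21 of 88 rose at 120 min and 12 fell, with a median of 0.05, against 13.7% and 23.3% of 5919 genes with a median of -0.04. Among those below it, 5 of 21 rose and none fell (median 0.08), against 9.22% and 3.19% of 846 genes (median 0.06). These 5 were SLC1A6, SLC5A1, SLC5A5, SLC6A14 and SLC28A3.

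The 36 members with further probe sets gave 52 more readings. For 13 genes that passed at 120 min there were 15 of them, 13 with the same sign and 4 that passed in the same direction: a pair for SLC38A1 (0.21 and 0.21), SLC38A9 (-0.22) and SLC39A1 (0.24). The other probe set of SLC25A38 changed by 0.12 and that of SLC46A3 by 0.02, neither of which passed, against falls of 0.44 and 0.39 in the probe sets used. For 5 genes that had not passed, another probe set did: SLC33A1 (-0.57), SLC30A5 (0.39), SLC3A1 (0.22), SLC2A4 (0.21) and SLC35A4 (0.17). These readings have lower mean signals than the ones used, by the rule of choice. For SLC33A1 the levels were close: the probe set that passed had a mean of 6.24 (adjusted p = 2.05e-05 in limma). The one used had a median of 6.31 at baseline and changed by -0.225.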
